A study of Homo sapiens with 20 samples.

Results

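The genes described here build the extracellular matrix and bind cells to it: the collagens, the laminins, the integrin alpha and beta chains, and the matrix glycoproteins tenascin-C (TNC), fibronectin (FN1) and thrombospondin-1 (THBS1). They were chosen by gene symbol among the 20046 protein-coding genes of GENCODE release 44 (hg38), which gave 85 genes: 44 collagens, 12 laminins, 18 integrin alpha chains, 8 integrin beta chains and the 3 glycoproteins. A peak was counted for a gene when its summit lay in an exon of that gene. By this rule 40 of the 85 genes (47.1%) had a peak in at least 1 library, against 10235 of all protein-coding genes (51.1%), and 654 of 154141 exonic peaks belonged to them.

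N6-methyladenosine (m6A) is a methyl mark that is placed on adenosines of messenger RNA, mostly within the sequence DRACH (A, G or T, then A or G, then the methylated A, then C, then A, C or T), and mostly in long internal exons and around stop codons. Collagens are trimers of chains with glycine at regular steps, and most collagen genes have many short exons. Laminins are trimers of an alpha, a beta and a gamma chain that form the sheet of basement membranes, and integrins are pairs of an alpha and a beta chain through which cells hold on to collagens, laminins, fibronectin and other ligands. In tumours, matrix and integrin genes are known for roles in invasion, survival signalling and the response to drugs.

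The study compared T24, a cisplatin-sensitive human bladder cancer line, with T24R2, a resistant derivative raised from T24 by repeated cisplatin exposure and, per the methods, kept in medium with cisplatin. Both lines are wild type by their labels, were grown in RPMI with fetal bovine serum and were harvested on day 3. Fragmented total RNA was pulled down with an anti-m6A antibody (MeRIP-seq), with 5 IP and 5 input libraries for each line; the authors called peaks in each IP library over its input. T24R2 is a single derived line, so a difference between the lines cannot be told apart from any other difference acquired during its derivation. Nor can it be told apart from an effect of the cisplatin in which T24R2 was kept. No source used here says that the 5 libraries of a line came from separate cultures. The p-values therefore measure the spread between these libraries, which may be technical.

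The files hold peaks and no read counts, so depth is unknown, and a peak that was not called is not shown to be absent: the transcript may be rarer or the mark lower, which these lists cannot tell apart. The lists held 17203 to 33120 peaks, and T24R2 replicate 5 had the longest. Because of that library, the counts of peaks per line are also given without it. Peaks carry no strand, so a summit in exons of overlapping genes cannot be assigned to either gene, which concerned 55 of the 654 peaks. Each peak has a fold enrichment of IP over local input, given here as a percentile among all peaks of its own library (100 is the highest). Of 15 urothelial marker genes 6 had a peak. KRT7 and FOXA1 were each marked in 5 T24 and 5 T24R2 libraries, and GATA3 in 5 and 0. UPK1A was marked in 1 and 1, PPARG in 1 and 2, and KRT18 in 0 and 2. UPK1B, UPK2, UPK3A, UPK3B, KRT5, KRT8, KRT19, KRT20 and TP63 had no peak. Of the markers of other cell types, 2 of 5 fibroblast genes (PDGFRA in 0 T24 and 3 T24R2 libraries, PDGFRB in 1 and 0), 2 of 4 endothelial genes (PECAM1 and CDH5, each in 5 and 5) and 1 of 4 leukocyte genes (CD68 in 5 and 1) had a peak, and DCN, LUM, FAP, VWF, TEK, PTPRC, CD3E and MS4A1 had none. A 3′ UTR region of CDH5 was called in 5 T24 and 0 T24R2 libraries. The part of other cells in the results was not tested. The 3′ UTR of GATA3, a urothelial transcription factor, was marked in 5 T24 and 0 T24R2 libraries.

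Reference sequence (hg38) around the summits that carry the results is shown next, read on the transcript strand, with each DRACH in capitals. The CDS windows reach up to 50 nt on each side of the summit with the highest fold enrichment and stop at the exon border, and the 3′ UTR windows are 29 nt. The first 6 come from TNC, because its regions separated the lines: the region called in every library (exon 3) and the 5 called in T24R2 only (exons 2, 4, 7, 12 and 28).
TNC exon 3, all libraries, chr9:115086067-115086167, minus strand: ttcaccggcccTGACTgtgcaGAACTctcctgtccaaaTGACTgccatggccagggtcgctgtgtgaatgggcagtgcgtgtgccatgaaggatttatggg
TNC exon 2, T24R2 only, chr9:115090883-115090983, minus strand: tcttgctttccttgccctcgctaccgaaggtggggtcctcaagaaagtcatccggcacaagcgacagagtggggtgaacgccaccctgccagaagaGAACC
TNC exon 4, T24R2 only, chr9:115084398-115084472, minus strand: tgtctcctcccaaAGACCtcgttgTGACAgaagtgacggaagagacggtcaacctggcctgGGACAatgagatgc
TNC exon 7, T24R2 only, chr9:115078155-115078212, minus strand: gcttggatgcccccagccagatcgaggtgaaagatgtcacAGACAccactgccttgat
TNC exon 12, T24R2 only, chr9:115063933-115064033, minus strand: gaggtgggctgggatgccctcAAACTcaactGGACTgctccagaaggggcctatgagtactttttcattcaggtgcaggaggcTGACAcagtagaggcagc
TNC exon 28, T24R2 only, chr9:115021153-115021253, minus strand: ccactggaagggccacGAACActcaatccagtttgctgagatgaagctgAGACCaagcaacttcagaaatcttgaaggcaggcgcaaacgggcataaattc

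The TNC windows held 1 to 3 DRACH motifs each, and the methylatable A nearest the summit lay 1 nt away in exon 28, 2 nt in exon 4 and 48 nt in exon 2. The COL4A4 and COL8A2 windows are shown because these are the line-specific collagen regions. They are centred on the nearest DRACH, whose A lies 31 and 17 nt from the summit, so the summit itself is outside them.
COL4A4 exon 48, 3′ UTR, T24R2 only, chr2:227007115-227007143, minus strand: atggatttgtttGGACCtcccaatctagg
COL8A2 exon 4, 3′ UTR, T24 only, chr1:36097052-36097080, minus strand: agggagaagaggGGACCatcgaggtggcg

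Most of the marked genes carried peaks in both lines. Of the 40, 21 were marked in all 10 libraries (52.5%, against 53.9% of all genes with a peak), 27 in both lines, 4 only in T24 (10.0%, against 6.0%) and 9 only in T24R2 (22.5%, against 15.3%), and 45 members had no peak in any library. Marked were 18 of 44 collagens, 7 of 12 laminins, 9 of 18 integrin alpha chains, 4 of 8 integrin beta chains, and TNC and THBS1 but not FN1. Members marked in 1 line only were mostly called in few of its libraries: of those seen only in T24R2, COL4A4 was called in all 5 libraries, ITGAV and LAMB2 in 4, COL4A1 in 3, COL6A3 and COL9A3 in 2, and ITGA10, ITGAD and LAMA5 in 1. Of those seen only in T24, COL8A2 was called in 5 libraries, LAMA4 in 4, COL9A2 in 2 and COL1A1 in 1. All 40 genes still had a peak when T24R2 replicate 5 was left out.

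**Figure D1:**
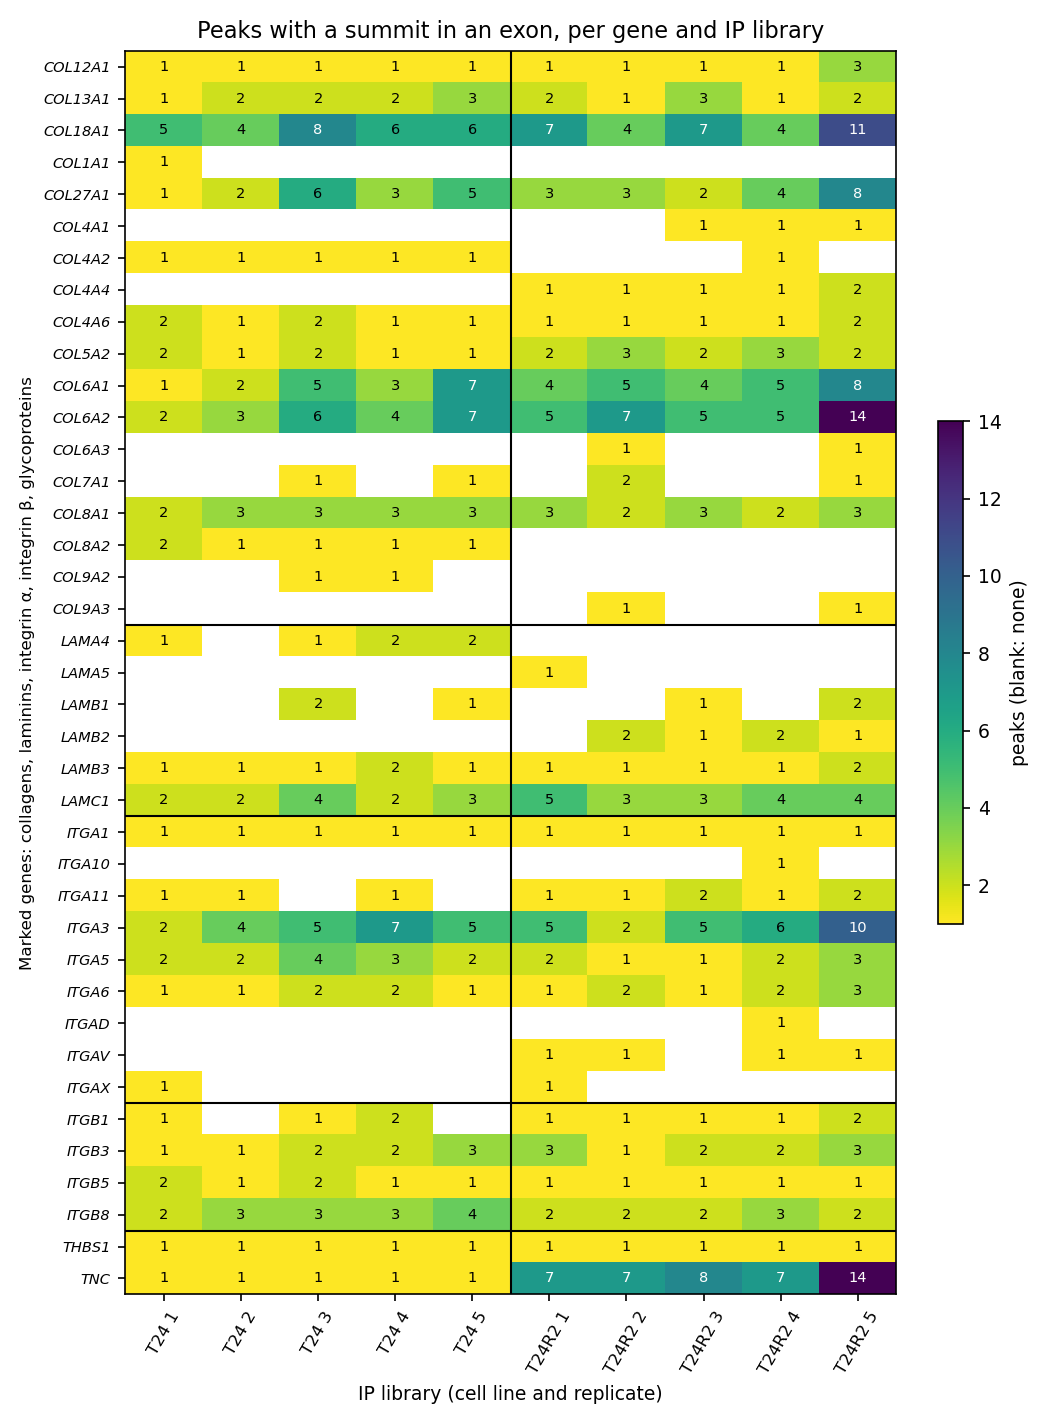
Number of peaks with a summit in an exon (colour and printed number, blank for none) for 39 of the 40 marked genes (rows, grouped by class) in each of the 10 IP libraries (columns, cell line and replicate). TNC had 1 peak in every T24 library and 7 to 14 in the T24R2 libraries.

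The number of peaks in these genes was higher on average in T24R2, by less than the range of the libraries within each line. The T24 libraries held 43, 43, 71, 60 and 66 such peaks and the T24R2 libraries 65, 61, 63, 68 and 114. The ranges overlapped, and T24R2 replicate 5 stood apart. The means were 56.6 ± 13.0 and 74.2 ± 22.4 (SD, n = 5 each; p = 0.198, two-sided exact permutation test, whose smallest possible p is 0.00794), and without replicate 5 of T24R2 the difference fell from 17.6 to 7.65 peaks. In lists of equal length, each shortened to its 17203 peaks of highest −log10 q (the length of the shortest list), it was 6.2 peaks (p = 0.0873, exact permutation test). The number of member genes with a peak was 26.6 ± 1.67 in T24 and 28.8 ± 1.79 in T24R2 (p = 0.119, exact permutation test), and in lists of equal length the direction turned, with 1.4 fewer genes on average in T24R2 (a difference of -1.4; p = 0.349, exact permutation test). As a share of the exonic peaks of each library, member peaks made up 0.395% ± 0.0577 in T24 and 0.44% ± 0.0554 in T24R2 (p = 0.254, exact permutation test), and without replicate 5 of T24R2 the difference fell from 0.0452 to 0.0208 percentage points. Restricting the lists to peaks with a −log10 q of at least 5 gave differences of 20.4 peaks (p = 0.00794) and 0.0704 percentage points (p = 0.0317, both exact permutation tests), so the outcome depended on the peak threshold.

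Members were chosen with earlier results of these data known, and the adjustment over the 5 classes below does not cover that choice. By class, the glycoproteins alone passed. They had 2 peaks in each T24 library and 8, 8, 9, 8 and 15 in the T24R2 libraries, with no overlap (p = 0.00794, exact permutation test; 0.0397 after Benjamini-Hochberg adjustment over the 5 classes). Collagens had 29.0 ± 8.6 peaks in T24 and 35.8 ± 13.0 in T24R2, laminins 8.2 ± 2.05 and 9.2 ± 1.64, integrin alpha chains 10.4 ± 2.51 and 13.0 ± 4.69, and integrin beta chains 7.0 ± 1.41 and 6.6 ± 1.14 (n = 5 each; adjusted p from 0.635 to 0.778, exact permutation tests). Without T24R2 replicate 5 the difference fell from 6.8 to 1.0 peaks for collagens, from 1.0 to 0.3 for laminins and from 2.6 to 0.85 for integrin alpha chains, and for integrin beta chains it went from -0.4 to -0.75. In lists of equal length it was -0.2 for integrin alpha chains and -1.4 for integrin beta chains (p = 0.0317 unadjusted, exact permutation test). The glycoprotein difference was that of TNC, since THBS1 had 1 peak in every library and FN1 none. Without TNC the members held 55.6 ± 13.0 peaks in T24 and 65.6 ± 19.4 in T24R2 (p = 0.413, exact permutation test).

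A test of peaks per gene over all 10235 genes with a peak was added after the values were seen. More peaks in T24R2 at an unadjusted exact permutation p under 0.05 were found for 10.5% of all genes and for 4 members (TNC, COL4A4, ITGAV and LAMB2), and fewer for 3.54% of all genes and for 3 members (COL8A2, COL4A2 and LAMA4). These were 10.0% and 7.5% of the 40 marked members. No gene passed after Benjamini-Hochberg adjustment over all genes, where the smallest adjusted p was 0.133, the value that TNC, COL4A4 and COL8A2 reached.

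TNC encodes tenascin-C, a matricellular glycoprotein that is sparse in most adult tissue and is made in wounds and tumour stroma. It had 1 peak in each T24 library and 7, 7, 8, 7 and 14 in T24R2 replicates 1 to 5. The means were 1.0 ± 0.0 and 8.6 ± 3.05 (n = 5 each; p = 0.00794, exact permutation test), and each T24R2 library lay above each T24 library. In the lists of equal length the counts were 1, 1, 0, 0 and 1 in T24 and 3, 7, 4, 4 and 5 in T24R2. The gap between the lines was then 4.0 peaks, with the same p. Without T24R2 replicate 5 it was 6.25 peaks.

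The TNC peaks fell into 15 merged regions along a transcript of 28 exons, and 14 of these were called in T24R2 libraries only. The remaining region, in exon 3 (chromosome 9, 115085879 to 115087354), was called in all 10 libraries. Exon 3 is 1410 nt long. Its percentile was 64.6, 52.7, 16.1, 35.7 and 38.3 in T24 and 72.2, 75.5, 75.2, 84.2 and 69.6 in T24R2. Each T24R2 value lay above each T24 value, with means of 41.5 ± 18.4 and 75.3 ± 5.52 (p = 0.00794 unadjusted, 0.176 after Benjamini-Hochberg adjustment over all regions called in all 10 libraries, exact permutation test). In limma on log2 fold enrichment the difference was 0.546 ± 0.246 (SE), with an adjusted p of 0.318.

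The 5 TNC regions called in every T24R2 library and no T24 library were weaker than the exon 3 region. In exon 4 (115084254 to 115084610) the fold enrichment was 4.63, 7.41, 5.38, 7.6 and 7.36 in the T24R2 libraries, but an exon of DELEC1 lies at the same place. In exon 2 (115090646 to 115091215) it was 3.12, 3.5, 4.27, 3.07 and 7.4, so replicate 5 was higher than the other libraries. In exon 7 (115078027 to 115078316), where 4 summits lay in an exon, it ranged from 2.67 to 6.54, in exon 12 (115063886 to 115064107) from 2.76 to 4.0, and in exon 28, with summits at the stop codon (115020857 to 115021337), from 2.28 to 3.84. The exon 28 region stayed at percentiles between 0.492 and 6.23. In the lists of equal length, only the exon 4 region was still called in all 5 T24R2 libraries, while those in exons 2, 7, 12 and 28 were called in 3, 2, 1 and 1. None of the 5 was called in a T24 list of that length.

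**Figure D2:**
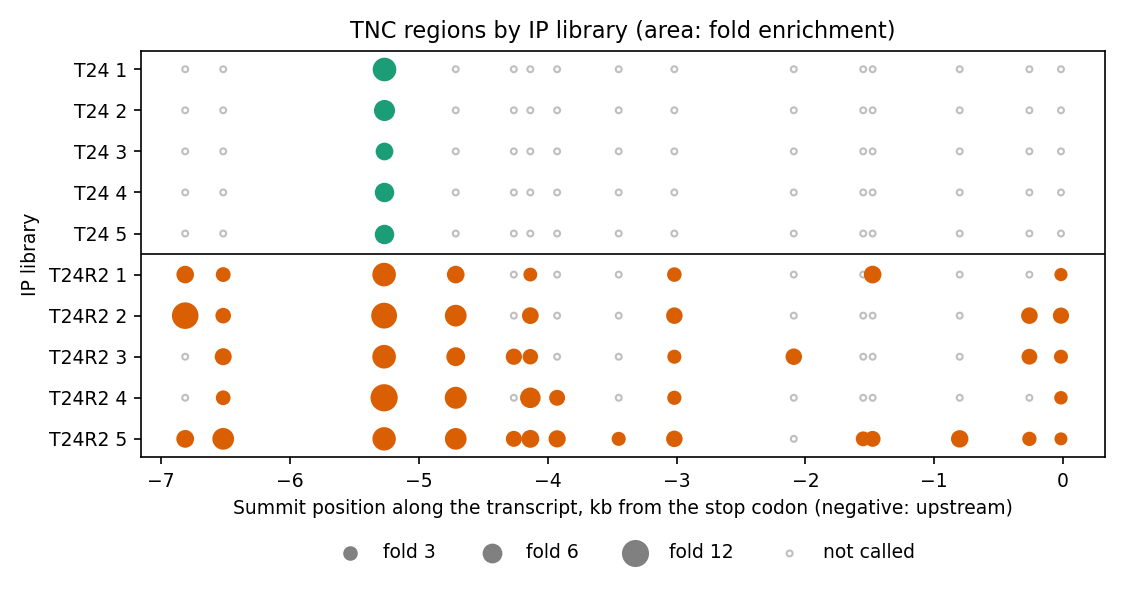
The 15 TNC regions by IP library (rows), placed by the distance of their summit from the stop codon along the transcript in kb; the area of a filled circle gives the fold enrichment and an open circle marks a library in which the region was not called. Only the exon 3 region was called in the T24 libraries.

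The other line-specific regions lay in the 3′ UTRs of collagens. COL4A4 encodes a chain of the type IV collagen network of specialised basement membranes. Its region, 158 nt after the stop codon in exon 48 (chromosome 2, 227007087 to 227007537), had fold enrichments of 7.64, 7.17, 6.24, 8.34 and 5.87 in T24R2 and was not called in T24. COL8A2 encodes a short-chain network collagen. Its region, 476 nt after the stop codon in exon 4 (chromosome 1, 36096736 to 36097213), had fold enrichments of 9.16, 8.43, 8.6, 7.81 and 9.75 in T24 and was not called in T24R2. In the lists of equal length the COL8A2 region was still found in 5 T24 libraries and no T24R2 library, and the COL4A4 region in 2 T24R2 libraries.

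Across all member regions, 6 of 152 (3.95%) were called in 5 T24R2 and 0 T24 libraries, and 1 of 152 (0.658%) the other way round, against 2.3% and 0.953% of the 25300 exonic regions. Of the 6, 5 lay in TNC. In the lists of equal length 1 member region (TNC exon 4) met the first criterion and 2 met the second (COL8A2, and COL4A2, which was called in 1 full T24R2 list), against 1.0% and 0.968% of exonic regions. Fisher's exact test gave p = 0.00794 for each of these 7 and an adjusted p of 0.195 over all regions. At an unadjusted p under 0.05, 12 member regions (7.89%) were called more often in T24R2, against 6.0% of exonic regions, and 3 (1.97%) more often in T24, against 1.71%. No member region, and no region at all, passed the Fisher test after Benjamini-Hochberg adjustment. Without T24R2 replicate 5, 13 of 123 member regions met the same unadjusted threshold with more calls in T24R2, against 6.35% of exonic regions. With more calls in T24 it was met by 3, for which no share of exonic regions is given.

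The weaker of these regions were spread over several classes. COL18A1, the source of endostatin, had a CDS region in exon 6 (chromosome 21, 45476280 to 45476416) called in 4 T24R2 libraries with fold enrichments of 3.98, 3.14, 14 and 2.47, and 3 summits lay in an exon. COL6A2, a chain of the beaded microfilament collagen, had a CDS region in exon 25 called in 4 T24R2 libraries at 3.04 to 5.5. LAMB2, the laminin beta 2 chain, had a region in exon 28 called in 4 T24R2 libraries at 2.33 to 4.6, and LAMC1, the gamma 1 chain of most laminins, a 3′ UTR region 767 nt after the stop codon called in 4 T24R2 libraries at 3.09 to 5.17. None of these 4 was called in T24. In exon 25 of ITGA3, the alpha chain of the laminin receptor α3β1, 1 T24 and 5 T24R2 libraries had a region at 2.42 to 4.75. At ITGAD, an alpha chain of leukocytes, 4 T24R2 libraries had a region, but in only 1 of them did the summit lie in an ITGAD exon. In the other direction, a region of COL4A2 (type IV collagen) was found in 5 T24 libraries and 1 T24R2 library. Its middle summit lay outside the exons of the canonical transcript, in the 3′ UTR of another COL4A2 transcript. A 3′ UTR region of LAMA4, the laminin alpha 4 chain, was found in 4 T24 libraries and no T24R2 library. The 4 LAMA4 fold enrichments were 3.05, 11.4, 3.22 and 9.13, so they varied widely within the line.

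Regions of these genes were called in fewer libraries than exonic regions in general. Of the 152 regions, 27 (17.8%) were called in all 10 libraries, against 31.5% of exonic regions, and 45 (29.6%) in a single library, against 20.7%. T24R2 replicate 5 alone gave 26 of the 45, and the other 9 libraries gave 0 to 4 each. Without it 123 regions were left, of which the same number, 27, were called in all 9 libraries. The median percentile was 21.9 over all member regions, against 41.6 over exonic regions, and 44.9 over the regions called in all 10 libraries, against 64.2. By class the median was 26.8 for collagens, 13.9 for laminins, 19.5 for integrin alpha chains, 24 for integrin beta chains and 14.1 for the glycoproteins. Within libraries, the median percentile of member peaks was 23.0 ± 4.16 in T24 and 25.1 ± 2.33 in T24R2 (p = 0.341, exact permutation test).

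Exon length differed between the regions called everywhere and the rest. The median exon of the members' canonical transcripts was 99 nt, with 63 nt for collagens, 115 nt for integrin alpha chains, 144 nt for laminins, 162 nt for integrin beta chains and 163 nt for the glycoproteins, against 133 nt for all genes. At the summits of member regions it was 1116 nt for those called in all 10 libraries and 183 nt for the others, against 1724 and 533 nt over all exonic regions. Exons of at least 400 nt held 24 of the 25 all-library regions with a canonical exon (96.0%, against 90.2% of all such exonic regions) and 31 of the 117 others (26.5%, against 55.9%). These are descriptions over regions, which share genes and libraries, and were not tested.

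**Figure D3:**
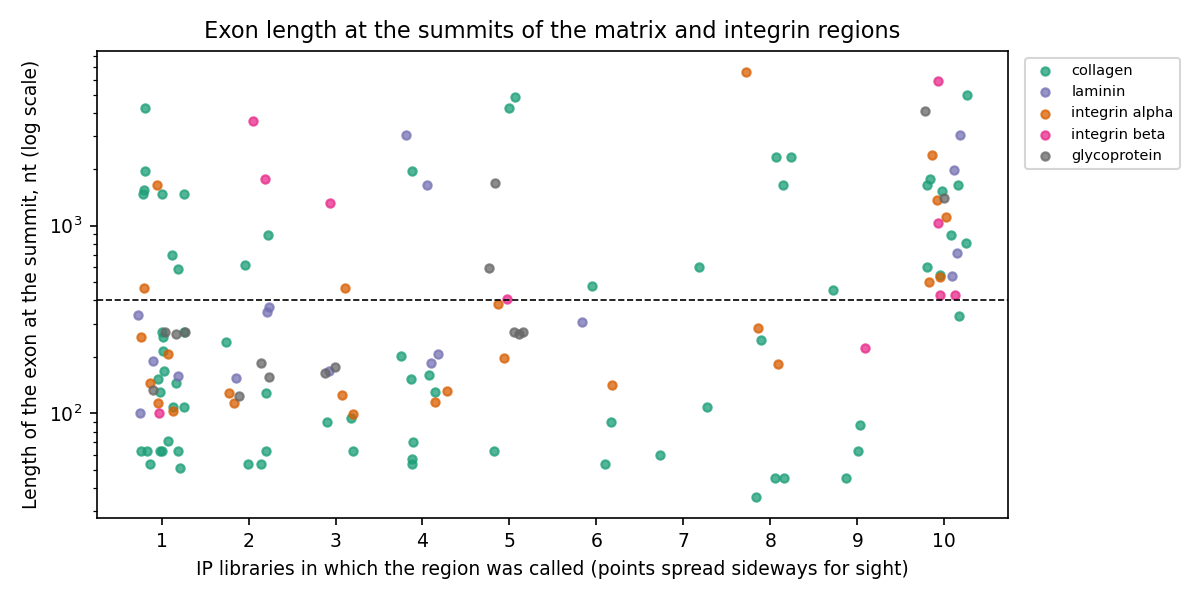
Length of the canonical exon at the summit (log axis, nt) against the number of IP libraries in which the region was called, for the 142 member regions with a canonical exon there; colours mark the class and the dashed line 400 nt. All but 1 of the 25 points at 10 libraries lie above the line.

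Among the all-library regions with a canonical exon, COL8A1 exon 3 (331 nt) was the 1 below 400 nt. In COL27A1, a fibrillar collagen, the region lay in exon 3 of 61, which is 1775 nt long. COL12A1, a collagen that decorates fibrils, carried it in exon 10 of 66 with 603 nt, and COL8A1 in the terminal exon of 4988 nt. COL18A1 had 2 such regions, at the end of the transcript and further upstream, and its 3′ UTR region also overlaps SLC19A1. COL6A2 had such a region in its last exon. A further all-library region of COL6A2 lay upstream, with its middle summit in no exon of the canonical transcript. In contrast, the other regions of COL6A1 and COL6A2 lay in exons of 45 to 63 nt in several cases. Among them, the regions over COL6A1 exons 10, 13 and 16 were called in 8, 9 and 9 of the 10 libraries, with mean percentiles of 31.9, 18.8 and 10.1, but only 4, 3 and 5 peak summits of these regions lay in a COL6A1 exon.

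Over the member peaks of a library, 52.2% ± 9.38 lay in CDS in T24 and 60.6% ± 5.11 in T24R2 (p = 0.151), and 37.0% ± 8.68 and 30.2% ± 4.81 in 3′ UTRs (p = 0.167, both exact permutation tests, n = 5 each), while all exonic peaks gave 57.2% in CDS in both lines and 31.4% and 31.1% in 3′ UTRs. Of the 152 regions, 107 lay in CDS, 33 in 3′ UTRs, 10 in 5′ UTRs and 2 in other exons.

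A DRACH lay within 50 nt of the summit of 86.1% ± 2.79 of member peaks in T24 and 89.6% ± 1.15 in T24R2 (p = 0.0476, exact permutation test). The complementary strand of the same windows held it in 69.9% and 68.5%, and the windows of all exonic peaks in 90.4% and 89.8%. The difference between the lines had an exact permutation p of 0.937 with a window of 25 nt, and for GGAC alone it was of the opposite sign (p = 0.778). The GGAC shares by class, given next, pool the peaks of all 10 libraries. A region called in several libraries therefore counts several times in them. GGAC was found on the transcript strand of 59.9% of collagen windows, against 21.9% on the other strand, of 69.0% of glycoprotein windows, against 32.8%, of 57.3% of integrin alpha windows, against 33.3%, of 47.1% of laminin windows, against 24.1%, and of 33.8% of integrin beta windows, against 23.5%.

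A percentile is a rank within its own list, and the T24R2 lists were longer (a mean of 25837 peaks, against 20456 in T24). The part that list length has in differences of percentile was not tested. For the 27 regions called in all 10 libraries the percentile was compared between the lines. The mean was higher in T24R2 for 22 of them (81.5%, against 65.4% of exonic regions), with a median difference of 13.4 percentile points, against 5.25. At an unadjusted exact permutation p under 0.05, 8 of the 27 were higher in T24R2, where 11.1% of the 7977 exonic regions were, and 1 was lower, where 2.59% were. None passed after Benjamini-Hochberg adjustment in either direction (0.0% and 0.0% of exonic regions), since the smallest adjusted p that occurred was 0.176. In limma on log2 fold enrichment, 1 of the 27 was higher in T24R2 with an adjusted p under 0.05, against 0.489% of exonic regions, and none was lower, against 0.263%.

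LAMB3, the beta chain of laminin-332, which anchors epithelia, had a 3′ UTR region in all libraries at low percentiles, from 0.0247 to 5.68 in T24 and from 4.35 to 25.2 in T24R2 (p = 0.0397 unadjusted, exact permutation test), and LAMA3, its alpha chain, had no peak. For the LAMB3 region limma gave a log2 difference of 0.507 ± 0.26 (SE) with an adjusted p of 0.397. In LAMC1, the region at the stop codon (183142430 to 183143138) had percentiles of 2.51, 4.65, 1.73, 1.84 and 0.684 in T24 and 5.29, 63.2, 30.2, 51.5 and 37.2 in T24R2. The lines did not overlap (p = 0.00794 unadjusted, exact permutation test), and limma gave a log2 difference of 0.98 ± 0.255 (SE) with an adjusted p of 0.0708. The LAMC1 region in exon 1 was at 26.2 ± 12.7 in T24 and 53.8 ± 32.5 in T24R2 (p = 0.127, exact permutation test), with overlapping libraries.

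Among the receptors, ITGA6, which pairs with β1 or β4 to bind laminins, had a 3′ UTR region (chromosome 2, 172503990 to 172504852) at percentiles of 25.6, 21.3, 35.9, 42.2 and 19.0 in T24 and 62.8, 78.6, 73.4, 76.6 and 76.8 in T24R2. The lines did not overlap (p = 0.00794 unadjusted and 0.176 adjusted, exact permutation test; limma log2 difference 0.717 ± 0.22 SE, adjusted p = 0.124). The 3′ UTR region of ITGA3 was at 18.7 ± 9.17 and 32.0 ± 6.24 (p = 0.0317 unadjusted, exact permutation test). In limma its log2 difference was 0.173 ± 0.223 (SE, adjusted p = 0.799). The 3′ UTR region of ITGA5, the alpha chain of the fibronectin receptor, was high in both lines at 70.7 ± 11.7 and 85.8 ± 8.79 (p = 0.0714, exact permutation test). The 5′ UTR region of ITGA1, a collagen receptor chain, was lower in T24R2. It alone among the 27 was lower at an unadjusted exact permutation p under 0.05. Its percentile was 53.0, 49.5, 97.0, 71.4 and 36.9 in T24 and 16, 41.4, 21.2, 37.5 and 23.4 in T24R2 (p = 0.0238 unadjusted, exact permutation test; limma adjusted p = 0.139), and an exon of PELO lies at the same place.

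For the beta chains that pair with αv, no region met this threshold. ITGB3 was at 76.7 ± 17.8 in T24 and 51.8 ± 20.9 in T24R2 (p = 0.0873, exact permutation test), in a CDS region that also overlaps the gene ENSG00000259753. The 5′ UTR region of ITGB8 was at 83.2 ± 20.2 and 68.1 ± 30.8 (p = 0.302) and its 3′ UTR region at 65.4 ± 27.2 and 53.5 ± 36.6 (p = 0.563, both exact permutation tests). ITGB5 lay near the bottom of every library, at 3.39 ± 2.75 and 6.6 ± 5.53. ITGAV itself, the αv chain, had no all-library region and a peak in 0 T24 and 4 T24R2 libraries.

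THBS1, a matricellular protein that binds CD47 and activates latent TGF-β, had its peak in the 3′ UTR, 430 nt after the stop codon (chromosome 15, 39595328 to 39596179). The percentile was 50.1, 34.0, 91.8, 74.7 and 23.7 in T24 and 96.3, 97.2, 86.0, 98.4 and 81.9 in T24R2. T24 replicate 3 lay within the range of T24R2 and the other T24 libraries below it (p = 0.0238 unadjusted, exact permutation test; limma log2 difference 0.872 ± 0.286 SE, adjusted p = 0.149).

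No collagen region called in all 10 libraries met this threshold. COL13A1, a transmembrane collagen, had the highest percentiles, with 96.8 ± 2.66 in T24 and 98.4 ± 0.797 in T24R2 at its 5′ UTR region (p = 0.254, exact permutation test). COL8A1 exon 4 was at 77.6 ± 6.51 and 82.1 ± 7.42 (p = 0.333) and COL27A1 exon 3 at 68.3 ± 12.5 and 84.8 ± 13.3 (p = 0.0794, both exact permutation tests). COL18A1 exon 3 was at 27.0 ± 28.5 and 60.5 ± 19.5 (p = 0.0714) and the last exon of COL6A2 at 40.6 ± 9.37 and 22.1 ± 21.4 (p = 0.111, both exact permutation tests). The upstream all-library region of COL6A2 went the other way, at 37.1 ± 24.9 in T24 and 62.4 ± 10.9 in T24R2 (p = 0.0714, exact permutation test). The lowest all-library collagen regions were COL8A1 exon 3, at 10.8 ± 8.78 and 20.6 ± 24.3, and the 3′ UTR of COL6A1, at 15.3 ± 11.4 and 23.3 ± 23.3.

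**Figure D4:**
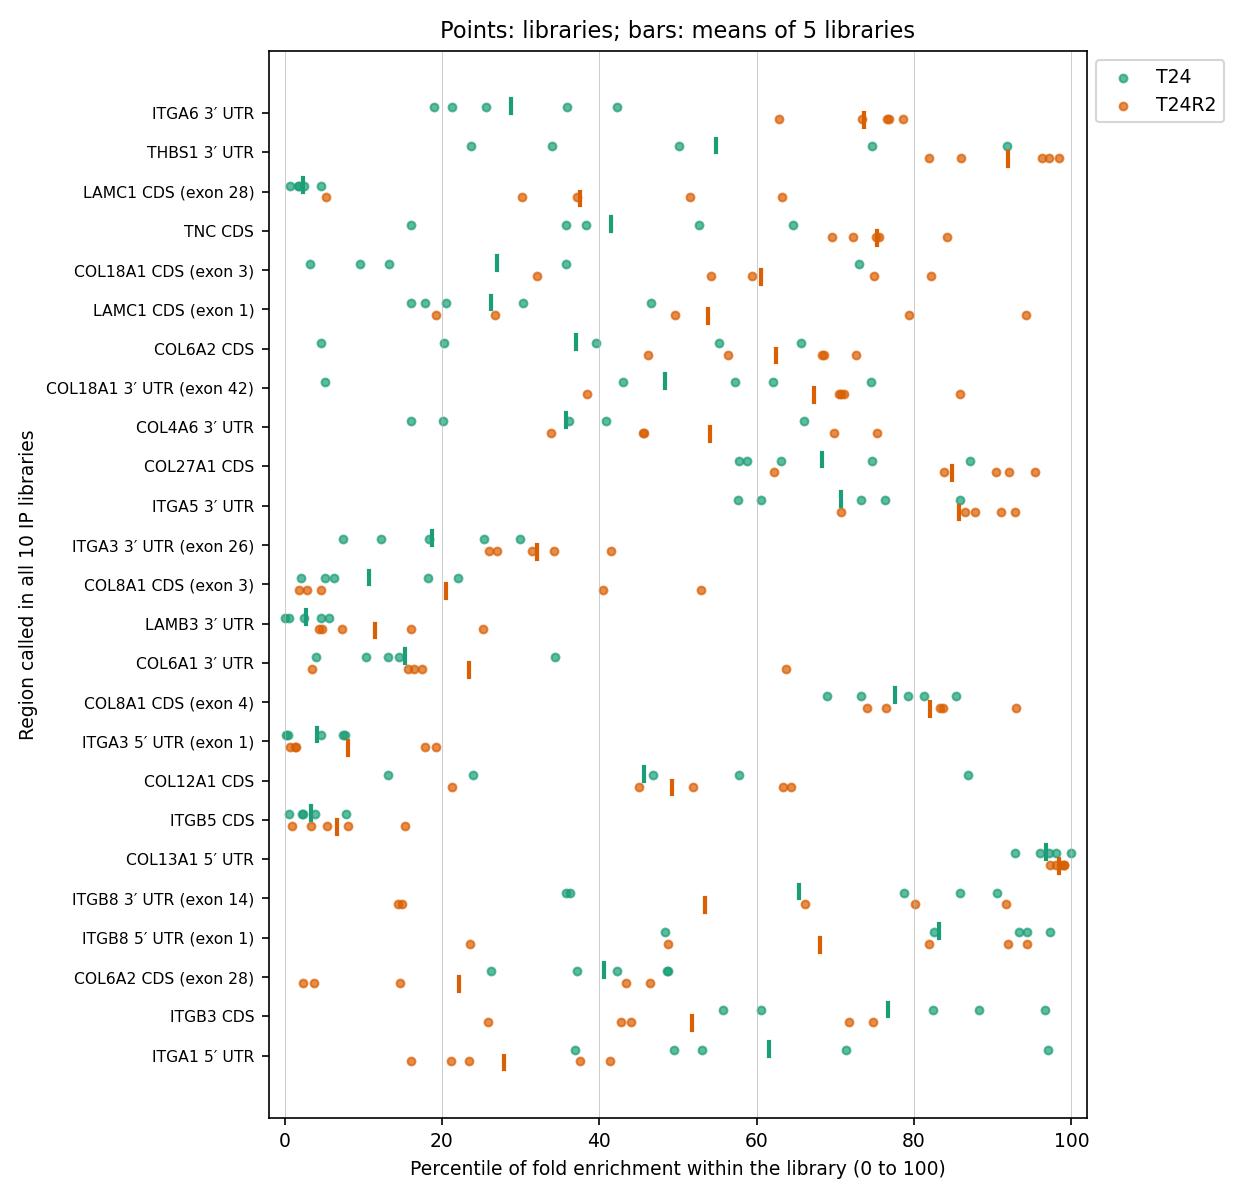
Percentile of fold enrichment within each library (horizontal axis, 0 to 100) for 25 of the 27 regions called in all 10 IP libraries, ordered by the difference of the means; points are libraries (5 T24, 5 T24R2) and short bars their means. ITGA6 is at the top with T24 libraries at 42.2 or below and T24R2 libraries at 62.8 or above, and ITGA1 is at the bottom.

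Genes that process or accompany the matrix were counted from a list of 47. Of these 30 had a peak (63.8%, against 51.1% of all genes), in 91 regions, of which 17 were called in all 10 libraries (18.7%, against 31.5% of exonic regions), 5 in T24R2 only (5.49%, against 2.3%) and 2 in T24 only (2.2%, against 0.953%). The 5 were a 3′ UTR region of BMP1, which trims procollagen, a 3′ UTR region of EFEMP1, a fibulin, a CDS region of SERPINH1, the collagen chaperone, and a CDS and a 3′ UTR region of VCAN, a large proteoglycan. Their fold enrichments ran from 2.4 (VCAN) to 12.7 (BMP1), and in the lists of equal length BMP1, SERPINH1 and both VCAN regions were called in 4 T24R2 libraries and EFEMP1 in 3. The 2 in T24 were a CDS region of LOXL1, a collagen and elastin crosslinker, at 5.47 to 7.35, and a 3′ UTR region of HSPG2 (perlecan) at 3.03 to 6.37 that an exon of LDLRAD2 overlaps, and both were called in all 5 T24 lists of equal length. Of 34 genes of the integrin adhesion complex 27 had a peak (79.4%), in 133 regions, of which 45 were called in all 10 libraries (33.8%), 1 in T24R2 only (0.752%) and 0 in T24 only. That region lay in the 3′ UTR of DDR2, a collagen receptor kinase, with fold enrichments of 6.86 to 14.1, and it was kept in all 5 T24R2 lists of equal length.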

How the data were processed

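MeRIP-seq peak lists of 10 IP libraries (5 of T24, 5 of T24R2) were used; the 10 input libraries entered only as the background of the deposited peaks. The submitters' processing notes and the study's methods give alignment by STAR 2.7.0 to hg38 (GENCODE release 39), a filter for unique, deduplicated reads with SAMtools 1.10, and peak calling by the authors in each library over its input with MACS2 (3.0.0a6). The deposited values are the fold enrichment at the summit (a ratio), −log10 p and −log10 q, and a score that the authors' caller derives from −log10 q; the score was not used further. The deposited merged regions equalled a bedtools (2.31.1) merge of the 10 lists with 1 bp of overlap.

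Summits were assigned to exons with GENCODE release 44; release 39 was not used here. Presence was tested with Fisher's exact test and values per library with two-sided exact permutation tests (NumPy 2.4.6, SciPy 1.17.1), adjusted over all regions or genes; limma 3.58.1 (R 4.3.3) on log2 fold enrichment, centred on each library's median, was an alternative. Scripts were tested on simulated data. Named genes were those with a region called in 5 libraries of a line and 0 of the other or with an unadjusted Fisher p under 0.05, the glycoproteins, the 3 members per class with the most regions called in all 10 libraries, and the 5 highest and 5 lowest such regions by percentile; ITGAV, LAMA3, COL4A1, COL12A1 and other members without a result of this kind were named after their values were seen. Members and gene lists were chosen with earlier results of these data known. Alternatives were thresholds on −log10 q (5) and fold enrichment (4), lists of equal length, a cover of 50% of the region, no shared exons, other motif settings, each library left out, and pairing by replicate number; the TNC counts and the values without TNC or without T24R2 replicate 5 were added after the data were seen. The regions of 1 marked gene are counted but not reported singly here. Depth is unknown, so no counting intervals are given.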

Additional observations from a re-analysis of the deposited data

Results flagged for a closer look

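Dixon's test, which marks about 1 in 20 groups by chance, was run on 20 groups of 5 libraries. In 5 of the per-library values, T24R2 replicate 5 lay far above the other 4 T24R2 libraries. These values overlap, since the class counts are parts of the count of member peaks and the share is derived from that count. T24R2 replicate 5 held 114 member peaks, with 68 in the next library, and 0.537% of its exonic peaks lay in members, with 0.427% in the next. It had 59 collagen peaks (next 32), 12 laminin peaks (next 9) and 15 glycoprotein peaks (next 9), 14 of the last in TNC. Its list was also the longest, with 33120 peaks against 22671 to 25603 in the other T24R2 libraries. The part that list length has in these values was not tested.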

How the results depend on the processing

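Lists of equal length changed most. With them the difference in member genes with a peak was -1.4 (reversed), that of integrin alpha peaks -0.2 (reversed) and that of integrin beta peaks -1.4 (exact permutation p = 0.0317), the DRACH difference was 2.0 percentage points (p = 0.183, exact permutation test), and 1 region was specific to T24R2 and 2 to T24, of which that of COL4A2 was not specific in the full lists. With a −log10 q of at least 5 the differences of 20.4 member peaks and 0.0704 percentage points passed (exact permutation tests). With 4 of 5 against at most 1 of 5 libraries, 12 and 4 regions were specific to T24R2 and T24. With 50% of the region covered, 0 were specific to T24. No share of exonic regions is given for these rules, so the counts cannot be set against a background. The DRACH difference was 0.33 with 25 nt, -0.583 for GGAC, and 2.97 to 4.71 over the libraries left out, where 7 of 10 values lost the call. Leaving out libraries gave 1 to 2 T24-specific regions. limma called 1 of the 27 regions, with and without the replicate block. The causes were not tested.

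The replicate numbers share no stated origin, and same-numbered libraries did not deviate together (correlations from -0.0419 to 0.121), so they were not taken as pairs. In the fit with the replicate block, the sign-flip test cannot go below 0.0625; the glycoprotein difference of 7.6 peaks and the DRACH difference of 3.56 points both had that p, as had TNC, and no other call changed. The laminin difference came to 0 in lists of equal length and the integrin beta difference to 0.0 without T24R2 replicate 2, and the other results kept their direction and side of the threshold under the alternatives run. Peak lists without read counts set the limit of precision.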
